A study of Mus musculus with 24 samples.

Results

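The cell cycle genes examined here are 48 genes that dividing cells switch on for DNA replication or for mitosis, 27 of them acting in mitosis and 21 in S phase. They were chosen by name from known roles, and each matched a single identifier among the 52636 genes of the table of normalized read counts. The samples are RNA of MC38, a colorectal cancer line from C57BL/6 mice, in 8 lines that differ in the enzymes that build surface glycans, with 3 samples per line. MC38-WT is the untreated line, harvested at passages 7, 8 and 9. MC38-MOCK#1 carries CRISPR-Cas9 without a target and is the reference of 3 knockouts, MC38-CMAS KO (Cmas, the enzyme that activates sialic acid), MC38-COSMC KO (C1galt1c1, the chaperone of T synthase, whose loss leaves truncated O-glycans) and MC38-DKO (both genes), all 4 at passages 4, 5 and 6. MC38-MOCK#2 carries CRISPR-dCas-VPR, a gene activator, without a target and is the reference of the lines labelled MC38-FUT4 and MC38-FUT9, in which a fucosyltransferase gene was to be activated. Passages were 6, 7 and 8 in MC38-MOCK#2 and MC38-FUT9, and 7, 8 and 7 in the samples labelled MC38-FUT4. Every line except MC38-WT was cultured with puromycin. MC38-COSMC KO was sorted in bulk on high lectin binding and is not a single clone. Passage and vector differ together between MC38-MOCK#1 and MC38-MOCK#2, and puromycin with them between MC38-WT and either, and their parts in any difference between these lines cannot be told apart. In bulk RNA, fewer cells in a phase and less RNA per cell in that phase cannot be told apart either.

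Cells copy their DNA in S phase and divide it in mitosis, and many of the genes for either step are transcribed only when it is needed. E2F factors switch on the genes for replication before S phase, after cyclin-dependent kinases have inactivated the retinoblastoma protein. The genes for mitosis rise later, in G2, under the MuvB complex with B-Myb (encoded by Mybl2) and FoxM1. In a culture of dividing tumor cells, the levels of these genes reflect how the cells are spread over the cycle as well as how strongly each gene is read.

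Promoter sequences are shown first because the 2 groups of genes differ in the short motifs of their promoters, which the choice of genes did not use. RefSeq promoters (GRCm38.p6, 250 bases before to 50 bases after the start) were on hand for 40 of the 48 genes. The CHR, the element bound by MuvB, was searched as TTTGAA or TTCGAA, the CCAAT box of NF-Y as CCAAT, and the E2F site as TTTGGCGC, TTTCCCGC, TTTGCCGC or TTTCGCGC, on both strands. Adjacent E2F matches may overlap each other. A CHR stood in the promoter of 16 of 22 mitosis genes (72.7%), 4 of 18 S phase genes (22.2%) and 21.7% of all 27025 genes. CCAAT stood in 17 of 22 mitosis genes (77.3%), 11 of 18 S phase genes (61.1%) and 41.1% of all genes. An E2F site stood in 0 of 22 mitosis genes, 8 of 18 S phase genes (44.4%) and 2.61% of all genes. A match is only a run of letters, and a promoter without one may still be bound. The lines below give, 5′ to 3′, the bases directly before the first base of the gene in the table, with CHR, CCAAT and E2F matches in capitals. Ccne1, Pcna, Rrm1, Bub1 and Bub1b are shown because their levels differed most between the lines or were called in MC38-FUT9, and Top2a, Ube2c and Mcm6 as examples of the motifs.
Ccne1 (chr7:38107535-38107684, GRCm38, minus strand): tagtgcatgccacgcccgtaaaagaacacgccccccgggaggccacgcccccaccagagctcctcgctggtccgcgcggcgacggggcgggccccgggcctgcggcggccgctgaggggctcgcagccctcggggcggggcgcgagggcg
Pcna (chr2:132253315-132253430, GRCm38, minus strand): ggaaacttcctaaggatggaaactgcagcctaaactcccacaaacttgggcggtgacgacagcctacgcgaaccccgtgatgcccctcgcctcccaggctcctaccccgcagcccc
Rrm1 (chr7:102441545-102441694, GRCm38, plus strand): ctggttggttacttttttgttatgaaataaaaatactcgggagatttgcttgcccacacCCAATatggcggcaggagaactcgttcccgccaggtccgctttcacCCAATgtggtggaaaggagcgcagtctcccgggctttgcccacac
Bub1 (chr2:127831866-127832015, GRCm38, minus strand): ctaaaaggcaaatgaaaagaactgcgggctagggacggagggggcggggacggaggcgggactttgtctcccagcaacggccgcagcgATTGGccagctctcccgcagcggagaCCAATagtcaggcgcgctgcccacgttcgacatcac
Bub1b (chr2:118598061-118598210, GRCm38, plus strand): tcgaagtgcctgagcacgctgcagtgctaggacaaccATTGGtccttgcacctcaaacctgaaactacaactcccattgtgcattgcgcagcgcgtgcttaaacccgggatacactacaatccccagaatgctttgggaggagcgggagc
Top2a (chr11:99024190-99024339, GRCm38, minus strand): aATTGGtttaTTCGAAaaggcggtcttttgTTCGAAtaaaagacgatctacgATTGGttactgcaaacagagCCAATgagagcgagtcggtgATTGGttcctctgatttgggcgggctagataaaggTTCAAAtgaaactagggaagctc
Ube2c (chr2:164769748-164769897, GRCm38, plus strand): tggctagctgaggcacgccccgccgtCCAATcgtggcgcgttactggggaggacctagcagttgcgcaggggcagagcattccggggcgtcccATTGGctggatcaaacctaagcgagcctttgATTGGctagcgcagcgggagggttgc
Mcm6 (chr1:128359706-128359855, GRCm38, minus strand): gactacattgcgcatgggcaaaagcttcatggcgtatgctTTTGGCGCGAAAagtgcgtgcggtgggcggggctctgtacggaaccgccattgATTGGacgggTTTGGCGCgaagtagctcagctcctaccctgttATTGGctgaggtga
The Ccne1 and Pcna stretches held none of the 3 motifs, and those of Rrm1, Bub1 and Bub1b held CCAAT only. Top2a held both CHR and CCAAT, Ube2c CCAAT only, and Mcm6 E2F and CCAAT.

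The totals of the normalized read counts lay between 10911849 and 12263307 per sample, and the lowest value of any cell cycle gene in any sample was 181, so that no value was limited by detection. As a check of the labels, Cmas was at 93 to 142 in the 6 samples of MC38-CMAS KO and MC38-DKO and at 272 to 416 in the other 18. C1galt1c1 was at 124 to 163 in MC38-COSMC KO and 220 to 251 in MC38-MOCK#1, but at 166 to 206 in MC38-DKO, 152 to 215 in MC38-CMAS KO and 154 to 217 in MC38-MOCK#2, so that its RNA does not separate the lines labelled as C1galt1c1 knockouts from the others. For its C1galt1c1 knockout the paper reports mutations in the gene, loss of T synthase activity and raised Tn antigen, none of which this RNA level measures. Fut9 was at 641 to 955 in MC38-FUT9. In the 3 libraries labelled MC38-FUT4, however, Fut4 was at 0 or 1, as in every other library, while Fut9 was at 171 to 209 against 0 to 7 in all libraries other than these and MC38-FUT9, so these libraries go against their label. Samples 1 and 3 labelled MC38-FUT4, both of passage 7, differed by a median of 0.049 on the log2 scale over 5358 genes with a mean of at least 500, against 0.070 to 0.179 for all other pairs of samples within a line, and results on this line were repeated with the 2 averaged. Of 8 markers of intestinal epithelium, 7 were under 10 in every sample, Epcam and Cdx2 among them, and the exception, Krt20, was at 263 to 468 in the libraries labelled MC38-FUT4, 30 to 44 in MC38-CMAS KO and 0 to 6 in the other lines. The 6 mesenchymal markers summed to 20729 to 35956 per sample, of which Vim gave 19787 to 33315. Col3a1 was at 5020 to 13474 in MC38-MOCK#2 and 4918 to 6318 in the libraries labelled MC38-FUT4. In the other lines, MC38-FUT9 included, Col3a1 was at 24 to 470. Pdgfrb was at 27 to 1100. Col1a1 was at 19 to 255 and Col1a2 at 4 to 131, and Dcn was at 0 to 2 in MC38-MOCK#1 and MC38-DKO and reached 417 in MC38-WT. The part of these marker differences in the results was not tested. Of 6 leukocyte markers 5, and of 3 endothelial markers 2, were under 10 in every sample.

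Over the 8 lines the cell cycle genes varied little. The line with the highest mean of a gene exceeded the line with the lowest by a median of 1.32-fold over the 48 genes, against 1.41-fold over 6576 other genes in the same range of levels, and the range passed 2-fold for 1 of 48 genes (2.08%) against 11.3% of the others. The median SD between samples of a line was 0.11 on the log2 scale in the cell cycle genes and 0.12 in the others. A difference among the lines was called by limma's F test (adjusted p under 0.05 over all genes) for 34 of 48 cell cycle genes (70.8%), against 48.2% of all 20944 genes tested and 76.4% of the genes with a mean of at least 500, so the share lay near that of other well expressed genes. The comparisons of lines below give only the share of all genes tested, weakly expressed ones included. Of the 34 calls 30 were made under every alternative, and those of Top2a, Ttk, Cdt1 and Kif23 were not. By role, all 7 genes of the kinetochore and spindle checkpoint, both proliferation markers, 5 of 6 spindle and cytokinesis genes and 4 of 5 origin licensing and firing genes were called. Of the MCM helicase 3 of 6 subunits were called, of the chromosomal passenger complex 1 of 3 genes, and of the genes of mitotic entry 4 of 7.

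**Figure D1:**
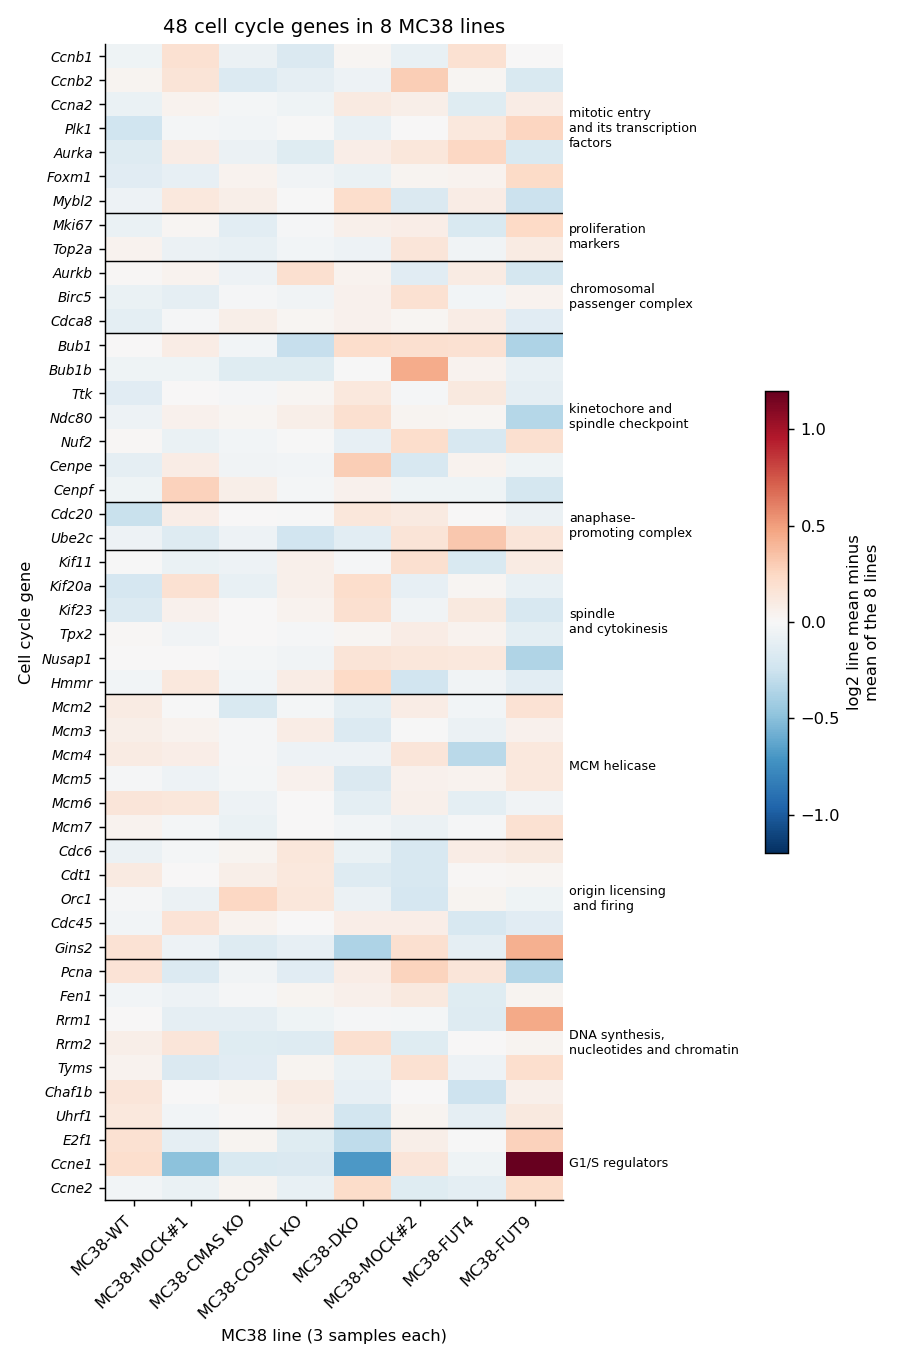
Mean of each of the 48 cell cycle genes (rows, in groups by role) in the 8 lines (columns, 3 samples each) as the difference in log2(value + 1) from that gene's mean over the lines, red for higher and blue for lower. Most cells are pale, and the strongest colours are those of Ccne1 in MC38-FUT9 (high) and MC38-DKO (low).

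Ccne1, which encodes cyclin E1, the partner of Cdk2 at the entry to S phase, differed most between the lines, by 3.83-fold from MC38-DKO to MC38-FUT9 (F test, adjusted p = 8.1e-11). Samples 1 to 3 had Ccne1 at 370, 353 and 355 in MC38-WT, 187, 221 and 263 in MC38-MOCK#1, 277, 273 and 276 in MC38-CMAS KO, 279, 261 and 292 in MC38-COSMC KO and 198, 202 and 181 in MC38-DKO. With the activator, Ccne1 was at 326, 330 and 383 in MC38-MOCK#2, 297, 331 and 276 in the libraries labelled MC38-FUT4 and 727, 814 and 693 in MC38-FUT9. The 3 MC38-FUT9 samples lay above all 21 others, whose highest value was 383, and the next lines in order, MC38-WT and MC38-MOCK#2, overlapped each other. MC38-CMAS KO and MC38-COSMC KO overlapped, at a mean of 275 ± 2.08 and 277 ± 15.6 (SD, n = 3), and so did MC38-MOCK#1 and MC38-DKO.

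Pcna, the sliding clamp that holds DNA polymerase on its template, came second in the F test (adjusted p = 4.9e-06) and had the highest level per kilobase of exon of the 48 genes. Pcna was at 6198, 5596 and 6342 in MC38-WT, 4691, 5002 and 4761 in MC38-MOCK#1, 5407, 5489 and 4849 in MC38-CMAS KO, 5149, 4846 and 4718 in MC38-COSMC KO and 5830, 5844 and 5552 in MC38-DKO. Pcna was at 6535, 7136 and 5831 in MC38-MOCK#2, 5763, 6412 and 5726 in the libraries labelled MC38-FUT4 and 4114, 4411 and 4207 in MC38-FUT9. Here MC38-FUT9 was the lowest line, below all 21 other samples (4691 to 7136), so that Pcna and Ccne1, both S phase genes, lay at opposite ends in the same cells. MC38-MOCK#2 was the highest line, but its samples overlapped those of MC38-WT, MC38-DKO and the libraries labelled MC38-FUT4.

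Gins2, a subunit of the GINS complex that helps to start the replicative helicase, followed in the F test (adjusted p = 4.9e-06). Gins2 read 779, 815 and 682 in MC38-WT, 600, 637 and 693 in MC38-MOCK#1, 671, 599 and 540 in MC38-CMAS KO, 689, 599 and 592 in MC38-COSMC KO and 480, 500 and 574 in MC38-DKO. In the activator lines Gins2 was at 776, 792 and 733 in MC38-MOCK#2, 599, 611 and 651 in the libraries labelled MC38-FUT4 and 880, 931 and 892 in MC38-FUT9. MC38-FUT9 lay above all other samples, which reached 815, and MC38-DKO had the lowest mean. Exons of Gse1 on the opposite strand cover 67.3% of the exon length of Gins2, and whether the counting used strand is not given in the sources used here, so the value of Gins2 is uncertain. The same holds for Fen1 (84.2% covered), Kif20a (33.2%, by Cdc23) and Ube2c (22.8%, by Tnnc2), while 11 further cell cycle genes overlapped other genes over less than 20% of their length.

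Bub1 and Bub1b, kinases of the spindle checkpoint, which holds the cell in mitosis until all chromosomes are attached, came next (adjusted p = 1e-05 and 1.5e-05). The values of Bub1 were 1220, 1222 and 1482 in MC38-WT, 1334, 1360 and 1438 in MC38-MOCK#1, 1353, 1305 and 1143 in MC38-CMAS KO, 1157, 1088 and 975 in MC38-COSMC KO and 1609, 1441 and 1451 in MC38-DKO. With the activator, Bub1 was at 1530, 1532 and 1377 in MC38-MOCK#2, 1474, 1493 and 1457 in the libraries labelled MC38-FUT4 and 974, 1048 and 996 in MC38-FUT9. MC38-FUT9 and MC38-COSMC KO were the lowest lines for Bub1, and their samples overlapped. Samples 1 to 3 had Bub1b at 2190, 2042 and 2010 in MC38-WT, 1964, 2185 and 2102 in MC38-MOCK#1, 2133, 1939 and 1794 in MC38-CMAS KO, 2037, 1827 and 2004 in MC38-COSMC KO and 2214, 2134 and 2092 in MC38-DKO. Bub1b was at 2624, 3005 and 3190 in MC38-MOCK#2, 2175, 2231 and 2246 in the libraries labelled MC38-FUT4 and 2022, 2114 and 1929 in MC38-FUT9. For Bub1b it was MC38-MOCK#2 that stood apart, above all 21 other samples, which lay between 1794 and 2246. Ube2c, the ubiquitin-conjugating enzyme of the anaphase-promoting complex, was sixth, with 3285, 3236 and 3438 in the libraries labelled MC38-FUT4, above all other samples, whose highest value was 3151.

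**Figure D2:**
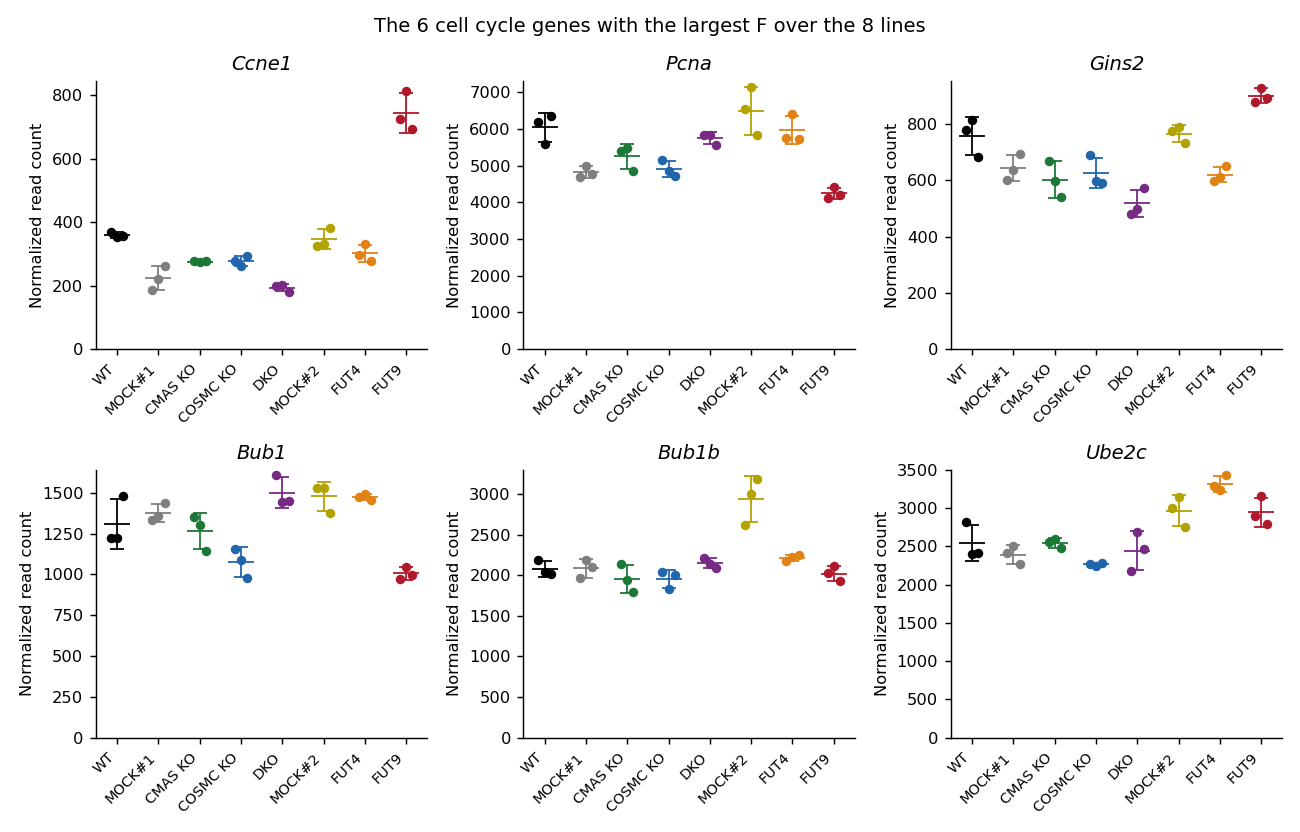
Normalized read counts (vertical axes, from 0) of the 6 cell cycle genes with the largest F over the lines, as points for the 3 samples of each line with the mean and SD. Ccne1 in MC38-FUT9 (693 to 814), Bub1b in MC38-MOCK#2 (2624 to 3190) and Ube2c in the libraries labelled MC38-FUT4 (3236 to 3438) lie above all other samples, and Pcna in MC38-FUT9 (4114 to 4411) below them.

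Mki67 and Top2a, the most used markers of proliferating cells, moved little. Mki67 was at 8729, 7630 and 9091 in MC38-WT, 9476, 9034 and 8703 in MC38-MOCK#1, 8491, 8076 and 7954 in MC38-CMAS KO, 9008, 8852 and 8602 in MC38-COSMC KO and 9780, 9181 and 8886 in MC38-DKO. In the activator lines Mki67 was at 9557, 9633 and 9163 in MC38-MOCK#2, 7377, 8639 and 7543 in the libraries labelled MC38-FUT4 and 10839, 10905 and 9865 in MC38-FUT9. All 3 MC38-FUT9 samples exceeded the 21 others, whose highest value was 9780, and the means differed by 1.34-fold between the highest and the lowest line (adjusted p = 0.00098). Top2a read 9741, 8988 and 10327 in MC38-WT, 9010, 9330 and 8544 in MC38-MOCK#1, 9081, 8828 and 8532 in MC38-CMAS KO, 9454, 9334 and 8853 in MC38-COSMC KO and 9425, 8876 and 8819 in MC38-DKO. With the activator, Top2a was at 10167, 10668 and 10416 in MC38-MOCK#2, 8637, 9984 and 8809 in the libraries labelled MC38-FUT4 and 9849, 11060 and 9397 in MC38-FUT9. For Top2a, the topoisomerase that disentangles sister chromatids, the highest and the lowest line differed by 1.18-fold (adjusted p = 0.049), and the lines overlapped widely. Top2a lost this call under some alternatives, with adjusted p between 0.021 and 0.12.

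Among the genes of mitotic entry, Plk1, the polo-like kinase, was called (adjusted p = 0.0033) and Ccnb1, cyclin B1, the partner of Cdk1, was not (adjusted p = 0.18). The values of Plk1 were 1780, 1451 and 1465 in MC38-WT, 1866, 1926 and 1638 in MC38-MOCK#1, 1734, 1813 and 1833 in MC38-CMAS KO, 1672, 1873 and 1973 in MC38-COSMC KO and 1654, 1782 and 1743 in MC38-DKO. Plk1 was at 1937, 1889 and 1700 in MC38-MOCK#2, 2047, 1970 and 1990 in the libraries labelled MC38-FUT4 and 2238, 2406 and 1968 in MC38-FUT9. MC38-FUT9 had the highest mean and MC38-WT the lowest, at 2204 ± 221 and 1565 ± 186. Samples 1 to 3 had Ccnb1 at 2537, 2204 and 2403 in MC38-WT, 2789, 3009 and 2586 in MC38-MOCK#1, 1932, 2737 and 2422 in MC38-CMAS KO, 1870, 2365 and 2338 in MC38-COSMC KO and 2728, 2897 and 1973 in MC38-DKO. In the activator lines Ccnb1 was at 2601, 2211 and 2146 in MC38-MOCK#2, 2724, 2751 and 2904 in the libraries labelled MC38-FUT4 and 2439, 2567 and 2429 in MC38-FUT9. The SD of Ccnb1 reached 492 within MC38-DKO, and no line stood apart. Cdc20, the activator of the anaphase-promoting complex, was not called either (adjusted p = 0.21). Cdc20 was at 2285, 1499 and 1532 in MC38-WT, 2443, 2283 and 1930 in MC38-MOCK#1, 2179, 2134 and 1988 in MC38-CMAS KO, 2006, 2102 and 2132 in MC38-COSMC KO and 2050, 2538 and 2339 in MC38-DKO. With the activator, Cdc20 was at 2551, 2471 and 1806 in MC38-MOCK#2, 2070, 2071 and 2142 in the libraries labelled MC38-FUT4 and 2013, 2075 and 1864 in MC38-FUT9. Its lowest values were those of samples 2 and 3 of MC38-WT.

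Of the replication genes, Mcm2, a subunit of the MCM helicase, was called (adjusted p = 0.0074) over a range of 1.27-fold. Mcm2 read 5720, 4968 and 4974 in MC38-WT, 4787, 5052 and 4700 in MC38-MOCK#1, 4398, 4382 and 4127 in MC38-CMAS KO, 4697, 4637 and 5004 in MC38-COSMC KO and 4119, 4676 and 4699 in MC38-DKO. Mcm2 was at 5550, 5383 and 4652 in MC38-MOCK#2, 4645, 5099 and 4581 in the libraries labelled MC38-FUT4 and 5414, 5728 and 5290 in MC38-FUT9. MC38-FUT9 had the highest mean and MC38-CMAS KO the lowest, and MC38-FUT9 overlapped MC38-WT and MC38-MOCK#2. Cdc6, which loads the MCM helicase at origins, ranged over 1.25-fold (adjusted p = 0.014). The values of Cdc6 were 1197, 1033 and 1169 in MC38-WT, 1168, 1224 and 1123 in MC38-MOCK#1, 1187, 1171 and 1290 in MC38-CMAS KO, 1364, 1275 and 1278 in MC38-COSMC KO and 1073, 1246 and 1077 in MC38-DKO. In the activator lines Cdc6 was at 1093, 1094 and 941 in MC38-MOCK#2, 1241, 1377 and 1188 in the libraries labelled MC38-FUT4 and 1318, 1263 and 1290 in MC38-FUT9. MC38-MOCK#2 had the lowest mean and MC38-COSMC KO the highest, with overlap between most lines.

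Rrm2, the small subunit of ribonucleotide reductase, which makes the building blocks of DNA, was not called among the 8 lines (adjusted p = 0.094). Samples 1 to 3 had Rrm2 at 7154, 4978 and 6636 in MC38-WT, 6957, 7106 and 5611 in MC38-MOCK#1, 5037, 5485 and 5493 in MC38-CMAS KO, 5032, 5366 and 5486 in MC38-COSMC KO and 6623, 7062 and 6520 in MC38-DKO. With the activator, Rrm2 was at 5804, 5928 and 4444 in MC38-MOCK#2, 5706, 6521 and 5571 in the libraries labelled MC38-FUT4 and 5785, 6736 and 5650 in MC38-FUT9. Its samples spread widely within MC38-MOCK#1, MC38-MOCK#2 and MC38-WT. E2f1, the factor that drives many S phase genes, was called (adjusted p = 4.6e-05). E2f1 was at 1557, 1505 and 1368 in MC38-WT, 1078, 1226 and 1330 in MC38-MOCK#1, 1383, 1303 and 1294 in MC38-CMAS KO, 1234, 1142 and 1151 in MC38-COSMC KO and 955, 1132 and 1068 in MC38-DKO. E2f1 was at 1419, 1315 and 1362 in MC38-MOCK#2, 1283, 1205 and 1394 in the libraries labelled MC38-FUT4 and 1544, 1571 and 1609 in MC38-FUT9. MC38-FUT9 was the highest line and MC38-DKO the lowest, as for Ccne1 and Gins2, and 1 MC38-WT sample (1557) lay within the range of MC38-FUT9.

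Per kilobase of exon, the cell cycle genes ranged from a mean of 74.5 normalized read counts for Cenpf to 2264 for Pcna. The 6 MCM subunits lay close together, between 703 and 1651 per kilobase, and the 7 kinetochore and checkpoint genes between 74.5 and 509. The 3 G1/S regulators were at 128 for Ccne1, 159 for Ccne2 and 415 for E2f1.

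The balance of the 2 groups was described by their mean log2(value + 1) per sample. The mean of the 27 mitosis genes minus that of the 21 S phase genes was -0.31 ± 0.033 in MC38-FUT9 (SD, n = 3) and -0.23 ± 0.053 in MC38-WT. It was between -0.11 and 0.08 in the means of the other 6 lines, with MC38-COSMC KO at -0.11 ± 0.029, MC38-MOCK#2 at -0.05 ± 0.025 and MC38-DKO highest at 0.08 ± 0.042. No sample of MC38-FUT9 or MC38-WT (-0.34 to -0.17) overlapped those of the other 6 lines (-0.14 to 0.13). Without Ccne1 the means were -0.39 ± 0.037 in MC38-FUT9, -0.36 ± 0.053 in MC38-WT, -0.25 ± 0.027 in MC38-COSMC KO and -0.08 ± 0.047 in MC38-DKO. These means are a description, and no test was made of them. The mean over all 48 genes differed less, from 10.90 in MC38-CMAS KO to 10.97 in MC38-FUT9 and MC38-MOCK#2, with an SD up to 0.11 within a line.

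**Figure D3:**
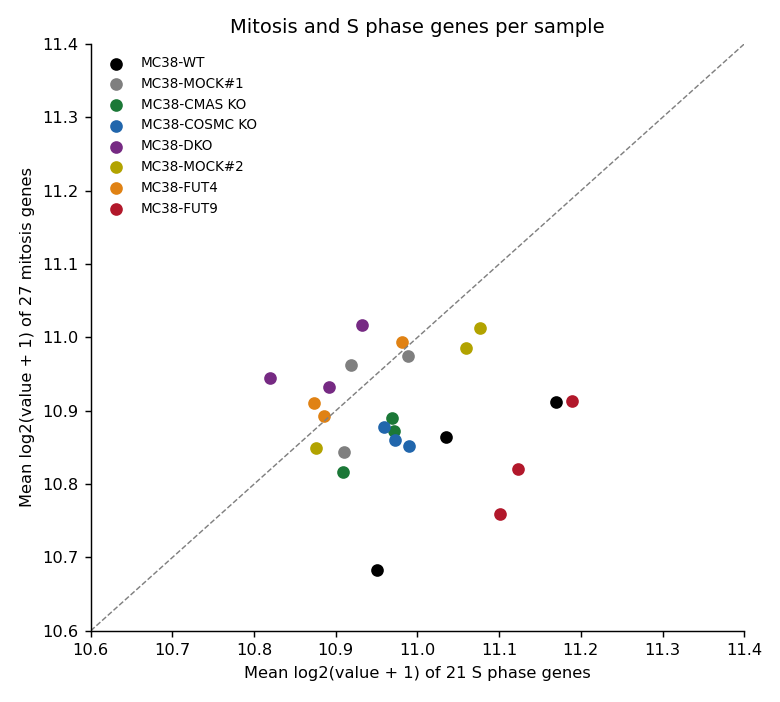
Mean log2(value + 1) of the 21 S phase genes (horizontal) and the 27 mitosis genes (vertical) in each of the 24 samples, coloured by line, with the dashed line where both are equal. MC38-FUT9 and MC38-WT lie farthest to the lower right (mitosis minus S phase -0.34 to -0.17), and MC38-DKO lies above the dashed line (0.041 to 0.13).

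MC38-FUT9 was compared with MC38-MOCK#2. Here and in the comparisons below, each knockout or activation is a single line, so that its effect and that of the line cannot be told apart. Of the 48 cell cycle genes 11 were called (22.9%), 5 higher and 6 lower, against 24.1% of all genes, 12.1% higher and 12% lower, so the share did not exceed that of all genes. The 5 higher genes were all S phase genes, and 5 of the 6 lower genes were mitosis genes. The median log2 fold change was -0.09 over the 27 mitosis genes and 0.08 over the 21 S phase genes, against 0.0088 over all genes. Outside the range of all 21 other samples lay 7 of the 48 genes in MC38-FUT9, against 11.9% of all genes.

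Ccne1 showed the largest change in MC38-FUT9, with 745 ± 62.4 against 346 ± 31.8 in MC38-MOCK#2 (SD, n = 3), a log2 fold change of 1.103 ± 0.097 (SE, adjusted p = 0.00065). Rrm1, the large subunit of ribonucleotide reductase, was at 5515, 6023 and 5236 against 4116, 4263 and 3707, a log2 fold change of 0.47 ± 0.083 (adjusted p = 0.0078), and its highest value in any other line was 4645. Its partner Rrm2 was at 5785, 6736 and 5650 against 5804, 5928 and 4444 and was not called. Cdc6, Gins2 and E2f1 were higher by 0.31, 0.23 and 0.21 on the log2 scale, and each of these 3 calls was lost in 4 or 5 of the 6 fits without 1 sample.

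In the other direction, Pcna fell by 0.61 ± 0.086 on the log2 scale (SE, adjusted p = 0.0033), from 6501 ± 653 to 4244 ± 152. Bub1 fell by 0.56 ± 0.069 (adjusted p = 0.0021), from 1480 ± 88.9 to 1006 ± 38. Bub1b fell by 0.54 ± 0.086 (adjusted p = 0.0056), yet its MC38-FUT9 samples (2022, 2114 and 1929) lay within the range of the lines other than MC38-MOCK#2. Ndc80, which ties the kinetochore to microtubules, was at 572, 603 and 610 against 772, 759 and 778 (log2 fold change -0.37 ± 0.060, adjusted p = 0.0057), and all other samples of the series were at 678 or more. Nusap1, a spindle protein, was at 571, 659 and 580 against 776, 862 and 918 (-0.50 ± 0.091, adjusted p = 0.0093), and Ccnb2, cyclin B2, fell by 0.48 ± 0.11 (adjusted p = 0.018).

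Of the 11 calls 6, those of Ccne1, Rrm1, Pcna, Bub1, Bub1b and Ndc80, were made under every alternative, including each fit without 1 sample. The count moved by more than 1.5 times to 6 without sample 1 of MC38-FUT9, to 7 without its sample 2 or without sample 2 of MC38-MOCK#2, and to 7 without the mean-variance trend. With values rescaled to the same total, 2 genes were higher and 11 lower, so the split of the other calls depends on the scaling.

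**Figure D4:**
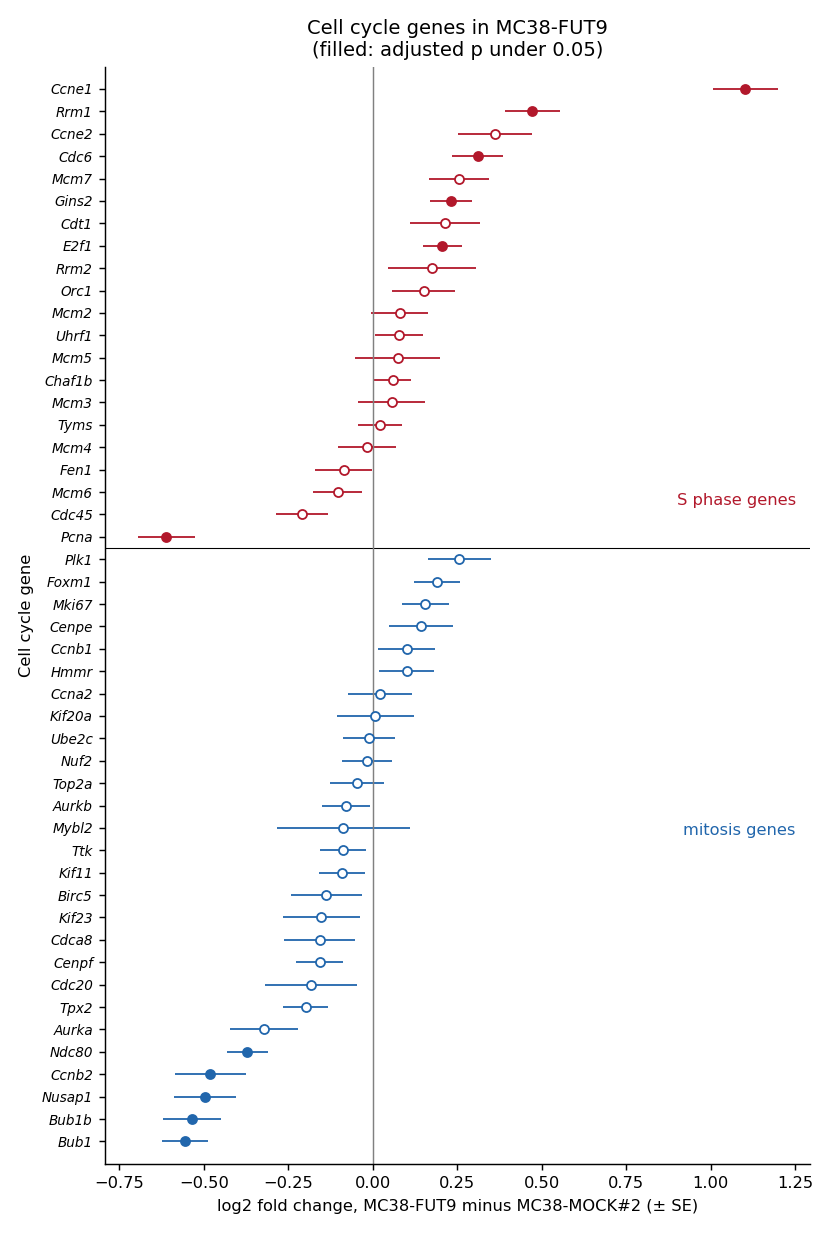
Log2 fold change between MC38-FUT9 and MC38-MOCK#2 (horizontal, point and SE, 3 samples per line) for the 21 S phase genes (red) and the 27 mitosis genes (blue), filled where the adjusted p was under 0.05. The filled points above 0 are the S phase genes Ccne1, Rrm1, Cdc6, Gins2 and E2f1, and those below 0 are Pcna and the mitosis genes Ndc80, Ccnb2, Nusap1, Bub1b and Bub1.

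In the libraries labelled MC38-FUT4, which held no Fut4 RNA beyond a value of 1, 6 of 48 cell cycle genes (12.5%) were called against MC38-MOCK#2, 1 higher and 5 lower, with 16.1% of all genes called, 8.1% higher and 8.04% lower. This comparison has the MC38-MOCK#2 samples in common with the one above. Mcm4, a subunit of the MCM helicase, changed most, with 2443, 2628 and 2402 against 3566, 3772 and 3058, a log2 fold change of -0.47 ± 0.091 (SE, adjusted p = 0.015), and all samples of other lines were at 2802 or more. The other 5 MCM subunits were not called. Nuf2, which binds Ndc80 at the kinetochore, was at 705, 789 and 710 against 914, 1026 and 976 (-0.40 ± 0.077, adjusted p = 0.015). Bub1b was at 2175, 2231 and 2246 (-0.40 ± 0.082, adjusted p = 0.019). Kif11, the motor that pushes the spindle poles apart, and Gins2 were lower by 0.37 and 0.31, and Aurkb, the kinase of the chromosomal passenger complex, was higher by 0.23 ± 0.062 (1618, 1625 and 1650 against 1455, 1403 and 1317, adjusted p = 0.047). The means of Nuf2, Bub1b, Kif11 and Gins2 in these libraries were 735, 2217, 1656 and 620, and those in MC38-MOCK#2 were 972, 2940, 2137 and 767. In MC38-MOCK#1 they were 793, 2084, 1775 and 643, so in these genes the labelled libraries lay closer to MC38-MOCK#1 than to MC38-MOCK#2.

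None of these 6 calls held throughout: with samples 1 and 3 averaged, 0 genes were called. The count was 0 without sample 1, 1 without sample 3, and 0 without sample 2 of MC38-MOCK#2, and 12 when all 8 lines were fitted together.

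MC38-MOCK#2 and MC38-MOCK#1, the 2 lines without a target, differed in 9 of 48 cell cycle genes (18.8%), 7 higher and 2 lower in MC38-MOCK#2, against 11.3% of all genes, 5.3% higher and 6.02% lower. Ccne1 was higher by 0.64 ± 0.14 on the log2 scale (SE, adjusted p = 0.035), at 326, 330 and 383 against 187, 221 and 263. Bub1b was higher by 0.49 ± 0.089 (adjusted p = 0.017), at 2624, 3005 and 3190 against 1964, 2185 and 2102. Pcna was higher by 0.43 ± 0.086 (adjusted p = 0.025), at 6535, 7136 and 5831 against 4691, 5002 and 4761. In all 3 genes the samples of the lines did not overlap, but neither did they in several genes that were not called, Cdc6, Aurkb and Cenpe among them. The other higher genes were Tyms, thymidylate synthase, Ube2c, Nuf2 and Kif11, by 0.27 to 0.35.

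Hmmr, a spindle protein, was lower in MC38-MOCK#2 by 0.36 ± 0.082 on the log2 scale (adjusted p = 0.038), at 1290, 1276 and 1140 against 1647, 1641 and 1455. Cenpf, a kinetochore protein, was lower by 0.33 ± 0.056 (adjusted p = 0.014), at 1125, 1091 and 1086 against 1390, 1405 and 1362, and the MC38-MOCK#1 samples stood above all 21 others, which reached 1304. The count fell to 0 without sample 2 of either line, to 1 without sample 1 and 3 without sample 3 of MC38-MOCK#1, to 2 without sample 1 and 5 without sample 3 of MC38-MOCK#2, and to 0 without the trend.

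MC38-COSMC KO, the line with truncated O-glycans, was compared with MC38-MOCK#1. Of the 48 cell cycle genes 2 were called (4.17%), 0 higher and 2 lower, against 11.6% of all genes, 6.17% higher and 5.39% lower. Bub1 was at 1157, 1088 and 975 against 1334, 1360 and 1438 in MC38-MOCK#1, a log2 fold change of -0.36 ± 0.076 (SE, adjusted p = 0.024). Cenpf was at 1103, 1133 and 1128 against 1390, 1405 and 1362, a change of -0.31 ± 0.049 (adjusted p = 0.010). In both genes the samples of the lines did not overlap, but neither did they in several genes that were not called, Rrm2, Ccnb1 and Cdc6 among them. All 46 other genes lay between -0.36 and 0.32 on the log2 scale, and the median over the 48 genes was 0.0064. Neither call held throughout: the count was 0 without sample 2 of MC38-MOCK#1, 1 without its sample 1 or without sample 2 or 3 of MC38-COSMC KO, 4 without sample 3 of MC38-MOCK#1, and 8 with values rescaled to the same total.

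MC38-CMAS KO against MC38-MOCK#1 gave 0 called cell cycle genes by limma, with 9 at an unadjusted p under 0.05 and changes from -0.32 to 0.32 on the log2 scale, against 5.76% of all genes called. Without sample 3 of MC38-MOCK#1 the count was 2. MC38-DKO against MC38-MOCK#1 also gave 0, with 8 at an unadjusted p under 0.05 and changes from -0.31 to 0.30, and here only 0.092% of all genes were called. The median change in MC38-DKO was 0.059 over the mitosis genes and -0.10 over the S phase genes.

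MC38-WT differed from MC38-MOCK#1 in 1 cell cycle gene, against 5.51% of all genes, 2.7% higher and 2.81% lower. This was Ccne1, at 370, 353 and 355 against 187, 221 and 263, a log2 fold change of 0.70 ± 0.14 (SE, adjusted p = 0.033) with no overlap. Several genes that were not called, Pcna and E2f1 among them, did not overlap either. The call of Ccne1 was lost in 5 of the 6 fits without 1 sample (adjusted p up to 0.16), and was kept only without sample 3 of MC38-MOCK#1. In the fit of all 8 lines 7 genes were called. The log2 fold change was below 0 for 21 of the 27 mitosis genes and above 0 for 18 of the 21 S phase genes. Of these genes only Ccne1 was called, and no test was made of the counts.

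MC38-DKO and MC38-CMAS KO both carry the Cmas knockout and differ by label in C1galt1c1, whose RNA overlapped between them (166 to 206 and 152 to 215). Of the 48 cell cycle genes 6 were called (12.5%), 3 higher and 3 lower, against 6.93% of all genes, 3.15% higher and 3.78% lower. Ccne1 was at 198, 202 and 181 against 277, 273 and 276, a log2 fold change of -0.51 ± 0.096 (SE, adjusted p = 0.021). E2f1 was at 955, 1132 and 1068 against 1383, 1303 and 1294 (-0.34 ± 0.082, adjusted p = 0.048), and Orc1, the large subunit of the origin recognition complex, at 796, 733 and 716 against 972, 917 and 916 (-0.32 ± 0.074, adjusted p = 0.040). All 3 genes act before or at the start of replication, but others of this step went either way and were not called, with Ccne2 at 0.19 and Cdt1 at -0.23. The samples of Ccne1, E2f1 and Orc1 did not overlap, but neither did those of many genes that were not called, Mki67, Pcna, Bub1 and Hmmr among them.

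Of the 3 higher genes in MC38-DKO, Rrm2 is an S phase gene and Cenpe and Kif20a are mitosis genes. Rrm2 was at 6623, 7062 and 6520 against 5037, 5485 and 5493 (0.34 ± 0.068, adjusted p = 0.026). Cenpe, the kinetochore motor that lines up chromosomes, was at 3735, 3441 and 3269 against 2794, 2757 and 2715 (0.34 ± 0.069, adjusted p = 0.028). Kif20a, a motor of cytokinesis, was at 2761, 2996 and 2762 against 2339, 2331 and 2257 (0.30 ± 0.064, adjusted p = 0.032). The count was 2 without sample 1 of MC38-DKO and 0 without any 1 of the other 5 samples, and 0 without the trend.

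The difference between MC38-DKO and MC38-CMAS KO was then set against that between MC38-COSMC KO and MC38-MOCK#1 in a single fit of the 4 lines, as the first minus the second. Each line stands for its genotype once, so that genotype and line cannot be told apart. Of the 48 cell cycle genes 10 were called (20.8%), 6 higher and 4 lower, against 22.1% of all genes, 11.1% higher and 11% lower, so that the share lay near that of all genes. All 5 called mitosis genes were higher, and 4 of the 5 called S phase genes were lower. The median was 0.22 over the mitosis genes and -0.14 over the S phase genes, against 0 over all genes to 2 decimals.

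Ccne1 showed the largest difference, -0.83 ± 0.17 on the log2 scale (SE, adjusted p = 0.0024), since it was higher by 0.32 in MC38-COSMC KO than in MC38-MOCK#1 and lower by 0.51 in MC38-DKO than in MC38-CMAS KO. Orc1 differed by -0.52 ± 0.11 (adjusted p = 0.0034), with 860, 901 and 824 in MC38-COSMC KO and 776, 798 and 676 in MC38-MOCK#1. Cdt1, the licensing factor that works with Cdc6, and Uhrf1, which reads newly copied DNA for methylation, differed by -0.36 ± 0.099 and -0.34 ± 0.097 (adjusted p = 0.017 and 0.021). The 3 MC38-DKO samples of Uhrf1 (3261, 3781 and 3835) lay below all 21 others, whose lowest value was 3854.

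Rrm2 differed by 0.64 ± 0.12 (adjusted p = 0.0015), with 5032, 5366 and 5486 in MC38-COSMC KO and 6957, 7106 and 5611 in MC38-MOCK#1. Bub1 differed by 0.61 ± 0.12 (adjusted p = 0.0020), with 1609, 1441 and 1451 in MC38-DKO and 1353, 1305 and 1143 in MC38-CMAS KO. Cenpe differed by 0.45 ± 0.11 (adjusted p = 0.0067), Kif20a by 0.42 ± 0.11 (adjusted p = 0.013), Aurka, the kinase of the spindle poles, by 0.39 ± 0.11 (adjusted p = 0.025) and Hmmr by 0.31 ± 0.10 (adjusted p = 0.038). The calls of Ccne1, Orc1, Rrm2, Bub1 and Cenpe were made under every alternative. Those of Aurka and Hmmr were lost in 7 and 9 of the 12 fits without 1 sample, and with values rescaled to the same total 11 genes were higher and 4 lower.

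**Figure D5:**
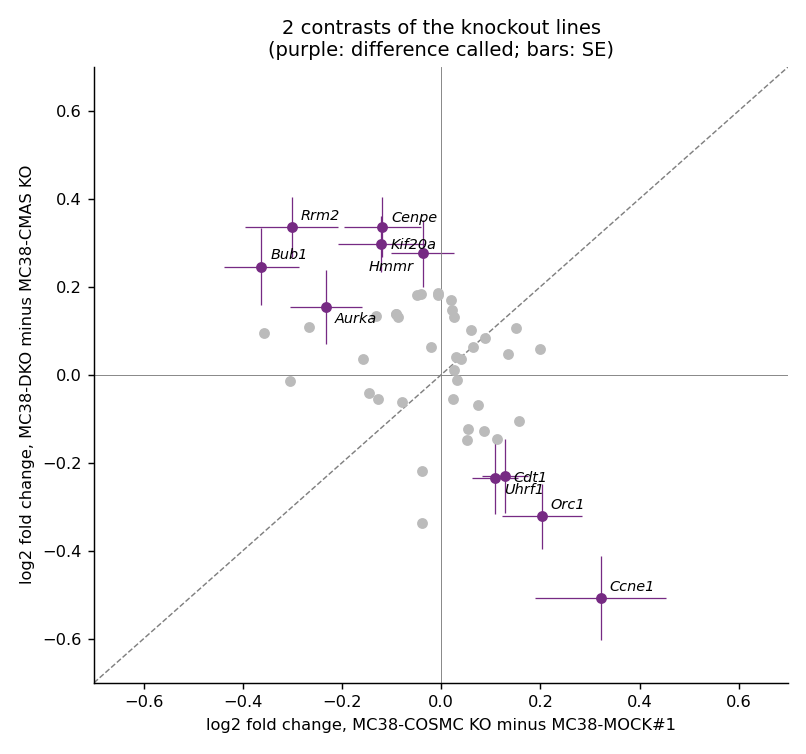
Log2 fold change of the 48 cell cycle genes between MC38-COSMC KO and MC38-MOCK#1 (horizontal) and between MC38-DKO and MC38-CMAS KO (vertical), 3 samples per line, with the 10 genes whose difference was called in purple with SE bars. Rrm2, Bub1, Cenpe, Kif20a, Aurka and Hmmr lie above the dashed line of equal change, and Ccne1, Orc1, Cdt1 and Uhrf1 below it.

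Passage number was tested within lines over all 24 samples. By limma 0 of 48 cell cycle genes were called (0% of all genes), and 3 had an unadjusted p under 0.05, Kif20a, Cdc20 and Kif23, with slopes of -0.070, -0.095 and -0.063 per passage on the log2 scale (adjusted p = 0.86 each). The slope was below 0 for 41 of 48 genes, with a median of -0.022, against -0.0038 over all genes. The share of all genes with a slope below 0 is not given here. The 48 genes are not independent of each other, and no test was made of this count or of the medians.

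Genes of the pathway beyond the 48 were taken as 3 lists: 40 regulators (D cyclins, cyclin-dependent kinases and their inhibitors, the retinoblastoma family, other E2F factors, MuvB subunits, Myc), 29 further replication genes and 24 further mitosis genes. The F test called 33 of 40 regulators (82.5%), 21 of 29 replication genes (72.4%) and 14 of 24 mitosis genes (58.3%), beside 48.2% of all genes and 76.4% of those with a mean of at least 500. The regulators ranged over a median of 1.57-fold between lines, more than the 1.32-fold of the 48 genes, and 9 of 40 passed 2-fold. These lists were chosen with earlier results of the data known. In the comparisons below their shares stand beside those of all genes, weakly expressed ones included, so a higher share is not shown to be particular to a list.

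In MC38-FUT9, 14 of the 40 regulators (35%) were called against MC38-MOCK#2, 11 higher and 3 lower, beside 24.1% of all genes. Cdkn2a, which encodes p16 and p19ARF, and Myc, a transcription factor that drives cell cycle entry, were higher by 1.25 ± 0.23 and 1.08 ± 0.11 on the log2 scale (SE, adjusted p = 0.0094 and 0.0011). The mean of Myc was 2718 in MC38-FUT9 against 1280 in MC38-MOCK#2 and 1229 in MC38-MOCK#1, but 2536 in the untreated MC38-WT. Rb1, the retinoblastoma gene, was at a mean of 76.7 against 260.0 (-1.66 ± 0.29, adjusted p = 0.0075), and Rpa1, the single-strand DNA-binding protein of replication forks, at 2017 against 3819 (-0.92 ± 0.065, adjusted p = 0.00034). The mean of Rb1 was also below that of MC38-MOCK#2 in MC38-DKO (172), MC38-MOCK#1 (161), MC38-WT (130) and the libraries labelled MC38-FUT4 (117). Of the further replication genes 7 of 29 were called (24.1%), 5 higher, and of the further mitosis genes 6 of 24 (25%), 3 higher, both near the share of all genes.

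In the libraries labelled MC38-FUT4, 11 of 40 regulators (27.5%), 10 of 29 replication genes (34.5%, 8 of them lower) and 4 of 24 mitosis genes (16.7%) were called, beside 16.1% of all genes. With samples 1 and 3 averaged, 6, 5 and 1 of these calls were left. Cdkn1b, the inhibitor p27, fell by 0.91 ± 0.12 on the log2 scale (SE, adjusted p = 0.0035) and Cdkn2c, the inhibitor p18, by 0.69 ± 0.11 (adjusted p = 0.0075). In MC38-MOCK#2 against MC38-MOCK#1 these 2 genes were higher, by 0.92 ± 0.12 and 0.59 ± 0.10 (adjusted p = 0.0058 and 0.016). Cdkn1a, the inhibitor p21, was higher in the libraries labelled MC38-FUT4 by 0.70 ± 0.13 (adjusted p = 0.014) and lower in MC38-MOCK#2 than in MC38-MOCK#1 by 0.65 ± 0.078 (adjusted p = 0.0046), and Cdk6 was lower there by 0.68 ± 0.091 (adjusted p = 0.0067). Cdkn1c, the inhibitor p57, was at a mean of 66.0 in the libraries labelled MC38-FUT4 against 4.67 in MC38-MOCK#2 (log2 fold change 3.91 ± 0.595, adjusted p = 0.0061). With samples 1 and 3 averaged, the adjusted p by limma was 0.026 for Cdkn1b, 0.049 for Cdkn2c, 0.046 for Cdkn1c and 0.069 for Cdkn1a, whose call was lost. The comparisons share the MC38-MOCK#2 samples, and Cdkn1b was at a mean of 915 in MC38-MOCK#2, 479 in MC38-MOCK#1 and 483 in the libraries labelled MC38-FUT4.

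Among the knockouts, MC38-COSMC KO had 17 of 40 regulators (42.5%), 6 of 29 replication genes (20.7%) and 4 of 24 mitosis genes (16.7%) called against MC38-MOCK#1, beside 11.6% of all genes, weakly expressed ones included. Of these regulators 13 were higher, with Myc higher by 0.93 ± 0.15 on the log2 scale (SE, adjusted p = 0.010) and Rb1 and Cdkn2d, the inhibitor p19, lower by 0.56 ± 0.14 and 0.52 ± 0.11 (adjusted p = 0.049 and 0.022). In MC38-CMAS KO 6 of 40 regulators were called (15%, beside 5.76% of all genes), with Cdk4, the kinase of the D cyclins, higher by 0.55 ± 0.070 (adjusted p = 0.0088) and Cdkn2d lower by 0.44 ± 0.097 (adjusted p = 0.047). In MC38-WT 8 of 40 were called (20%, beside 5.51% of all genes), with Myc higher by 1.01 ± 0.17 (adjusted p = 0.020) and Cdkn2d and Cdc25c lower by 0.53 ± 0.11 and 0.50 ± 0.11 (adjusted p = 0.038 and 0.049). In MC38-DKO 0 of 40 were called by limma, with 4 at an unadjusted p under 0.05. Each of these WT calls was lost in 5 or 6 of the 6 fits without 1 sample, as was that of Cdkn2d in the other lines. Cdkn1c was at a mean of 4.00 in MC38-MOCK#1 against 33.3 in MC38-COSMC KO, 55.3 in MC38-CMAS KO, 29.0 in MC38-WT and 22.7 in MC38-DKO, and was called in the first 3 of these lines (log2 fold change 2.77, 3.49 and 2.50, adjusted p = 0.0020, 0.0015 and 0.019).

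The difference between the 2 contrasts of the knockout lines was called in 25 of 40 regulators (62.5%), 6 higher and 19 lower, 8 of 29 replication genes (27.6%) and 10 of 24 mitosis genes (41.7%), beside 22.1% of all genes, 11.1% higher and 11% lower. Cdkn1c and Myc differed by -4.08 ± 0.42 and -1.70 ± 0.29 on the log2 scale (SE, adjusted p = 1.2e-05 and 0.00073), and Cdkn2d by 0.94 ± 0.16 (adjusted p = 0.00070). In MC38-DKO against MC38-CMAS KO alone, Kif2c was higher by 0.30 ± 0.073 (adjusted p = 0.048), and Cdkn1c and Cdkn2c lower by 1.31 ± 0.30 and 0.52 ± 0.096 (adjusted p = 0.039 and 0.019). The calls of Cdkn1c, Myc and Cdkn2d in the test of the difference held in all 12 fits without 1 sample, whereas those of Kif2c and Cdkn2c were lost in 6 of 6.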

How the data were processed

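RNA of 24 samples, 3 from each of 8 MC38 lines, had been sequenced as single reads from stranded mRNA libraries. The authors aligned the reads to GRCm38 with HISAT2 2.0.4, counted them per gene with featureCounts of Subread 1.5.0-p3, leaving out reads that overlap several genes, and normalized the counts with edgeR 3.18.1. The deposited values are these normalized read counts rounded to whole numbers, a score and not raw counts, so the depth behind a value is unknown.

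Values were taken as log2(value + 1) and fitted for each comparison with limma 3.58.1 in R 4.3.3 (lmFit, eBayes with a mean-variance trend), and p-values were adjusted over all genes by the Benjamini-Hochberg method, with a threshold of 0.05. Genes with more than 4 of 6, 8 of 12 or 16 of 24 values at 0 were dropped, which removed no cell cycle gene. The scripts were tested on simulated data. Separate cultures are given only as independent harvests, so p-values measure the spread between these samples. The cell cycle genes and the other lists were chosen with earlier results of these data known. Named were 11 fixed genes, the 5 with the largest F, up to 3 called genes per direction in each comparison, and up to 2 of the other lists, of which 1 gene is not reported here. Alternatives were the scaling, the pseudocount, the zero filter, the trend, a block for the sample number, a fit of all lines and leaving out each sample. Where the samples of lines did not overlap, this describes a call and is not a further test of it. Promoters are from RefSeq.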

Additional observations from a re-analysis of the deposited data

Results flagged for a closer look

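The difference between MC38-DKO and MC38-CMAS KO minus that between MC38-COSMC KO and MC38-MOCK#1 was called in 10 of 48 cell cycle genes (20.8%, limma, adjusted over all genes), near the 22.1% of all genes called, and 5 of the 10 calls, those of Rrm2, Bub1, Cenpe, Ccne1 and Orc1, were made under every alternative. On the log2 scale it was 0.64 for Rrm2, 0.61 for Bub1, 0.45 for Cenpe, 0.42 for Kif20a, 0.39 for Aurka and 0.31 for Hmmr. It was -0.83 for Ccne1, -0.52 for Orc1, -0.36 for Cdt1 and -0.34 for Uhrf1. Each genotype is 1 line, and genotype and line cannot be told apart.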

How the results depend on the processing

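Of 79 gene results, none reversed in 1705 refits, and 260 refits lost the call. The counts of called cell cycle genes moved more. Without the mean-variance trend they were 0 for MC38-COSMC KO, MC38-WT, MC38-DKO against MC38-CMAS KO, MC38-MOCK#2 and the libraries labelled MC38-FUT4, 7 for MC38-FUT9 and 5 for the difference between the 2 contrasts of the knockout lines. With all 8 lines in a single fit they were 4 for MC38-COSMC KO, 7 for MC38-WT and 12 for the libraries labelled MC38-FUT4. Rescaling to the same total gave 8 for MC38-COSMC KO. Averaging samples 1 and 3 labelled MC38-FUT4, chosen after seeing the data, gave 0. The cause of these shifts was not tested.

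Leaving out 1 sample gave 0 to 4 for MC38-COSMC KO, 0 to 2 for MC38-CMAS KO, 0 to 1 for MC38-WT, 0 to 2 for MC38-DKO against MC38-CMAS KO, 0 to 5 for MC38-MOCK#2, 0 to 7 for the libraries labelled MC38-FUT4, 6 to 14 for MC38-FUT9, 8 to 12 for the difference and 32 to 36 for the F test. Same-numbered samples were not paired: the correlation of their deviations lay between -0.2135 and 0.2537, and in no comparison were all 3 over 0.1, although every sample correlated best with its own number in MC38-DKO against MC38-CMAS KO, MC38-MOCK#2 and MC38-FUT9. A block for the replicate number gave 0 for MC38-COSMC KO, 0 for MC38-WT, 1 for MC38-DKO against MC38-CMAS KO and 2 for the libraries labelled MC38-FUT4. Under every alternative, this block included, 6 of the 11 calls in MC38-FUT9 were made, and 0 of the 9 in MC38-MOCK#2 against MC38-MOCK#1.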
